A study of Mus musculus with 2 samples.

Results

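The miR-223 and miR-142 microRNAs (miRNAs) of blood cells were examined in bone marrow cells sorted as c-Kit+ Sca1+ Lineage-, a phenotype shared by blood stem cells and their first progeny. All mature arms of these miRNAs with spots on the array were taken by name, which gave 4 of 1247 mouse miRNAs: mmu-miR-223-3p, mmu-miR-223-5p, mmu-miR-142-3p and mmu-miR-142-5p, written below without the species prefix mmu. They were chosen with their levels on these arrays known, so every difference between genotypes below is a description. One array held RNA of adult cells labelled KO (genotype CreERT, Tif1bf/f) and 1 array RNA of adult cells labelled WT (CreERT, Tif1bw/w), both on the C57/BL6 background and both carrying CreERT, an inducible recombinase. Tif1b (Trim28) encodes a corepressor of retroelements and genes. The number and sex of the animals, the promoter of CreERT, and how and when recombination was induced are not given in the sources used here. There was 1 array per genotype, so no test between genotypes is possible and every error below is the spread over spots of an array, not over animals. The number of arrays limits the precision. The array measures no mRNA, so neither Tif1b loss nor the sorting markers could be checked.

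A miRNA precursor folds into a hairpin whose 5p and 3p arms can each be loaded into Argonaute, and the loaded arm finds target mRNAs mainly through its seed, bases 2 to 8. miR-223 is known as a miRNA of granulocytes and monocytes whose gene is driven by the myeloid factors PU.1 and C/EBP, and mice without it make more neutrophils with heightened responses. miR-142 is known as a miRNA of the whole blood system, present in most blood lineages and nearly silent outside them. Both of its arms are known to be functional.

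The mature sequences are shown because their seeds set what each arm can bind, with the seed in capitals. They are from RefSeq (GRCm38.p6), which calls the miR-142 arms miR-142a, and all 4 members matched.
miR-223-3p: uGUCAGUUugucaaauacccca
miR-223-5p: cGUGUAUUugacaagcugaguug
miR-142-3p: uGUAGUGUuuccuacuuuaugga
miR-142-5p: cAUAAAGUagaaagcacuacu
The 4 seeds differ from each other, and none is shared with any other of the 1738 mouse mature miRNAs in the same source. No other miRNA on the array therefore stands for their seed families.

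The hairpins are shown with both arms in capitals, to place the arms that the array reads.
Mir223: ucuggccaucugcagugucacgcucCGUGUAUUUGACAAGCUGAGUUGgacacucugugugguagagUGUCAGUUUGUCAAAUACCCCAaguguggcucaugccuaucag
Mir142: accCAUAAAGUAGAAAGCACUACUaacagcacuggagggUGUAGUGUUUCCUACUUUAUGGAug
Mir223 lies on the plus strand at chrX:96242817-96242926 (GRCm38.p6), inside the noncoding gene F630028O10Rik at chrX:96239926-96243642. Mir142 lies on the plus strand at chr11:87756864-87756927. The annotated gene Mir142b covers it at chr11:87756841-87756955 on the minus strand.

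Each arm was read by 40 spots carrying probes that end at the 3′ end of the miRNA and reach different distances toward its 5′ end. The longer probe of each arm is shown because the results turn on whether probes of an arm give the same answer, with capitals for the bases that its shortest probe lacks.
miR-223-3p, 21 bases: tggggtatttgacaaactgaC
miR-223-5p, 17 bases: caactcagcttgtcaAA
miR-142-3p, 23 bases: tccataaagtaggaaacactacA
miR-142-5p, 19 bases: agtagtgctttctactttA
The miR-223-3p probe covers bases 2 to 22 of its miRNA and the miR-142-3p probe bases 1 to 23, so both reach through the seed. The miR-142-5p probe covers bases 3 to 21, and the miR-223-5p probe covers bases 7 to 23 only. Among other mouse mature miRNAs the closest to a 3p probe had at least 8 mismatches. The closest to the miR-142-5p probes was miR-3964 with 3 mismatches, and miR-3964 was measured on neither array. miR-142b, transcribed from the strand opposite to Mir142, is identical to bases 1 to 20 of the longer miR-142-3p probe, has no probe of its own here and was not analysed.

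The signal of a spot is the scanner software's processed intensity, and a probe's level is the mean over its spots without those the software marked as outliers. A probe was called measured where over 50% of these spots carried the software's mark for signal well above background. Differences are KO minus WT on the log2 scale, after division by the array's 75th percentile, taken over the 113 probes that both arrays measured. That percentile was 213 on the KO array and 487 on the WT array, so most signals were dimmer on the KO array, although 7 of the 72 miRNAs measured on both arrays were brighter there without scaling. Negative control spots averaged 6.99 ± 4.0 on the KO array and 6.62 ± 3.88 on the WT array (SD over 973 and 983 spots). Of the 1247 miRNAs, 78 were measured on the KO array, 100 on the WT array and 72 on both. No miRNA spot was saturated.

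miR-223-3p was among the brightest miRNAs of the WT array and in the middle of the KO array. miR-142-3p was lower on the KO array by a margin near the edge of 2-fold, miR-142-5p was measured on the WT array only, and miR-223-5p was measured on neither. Both arms measured on the KO and WT arrays were thus at least 2-fold lower on the KO array, where 13.9% of the 72 measured miRNAs were. Because the members were chosen for these levels, that count shows only what was chosen.

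**Figure D1:**
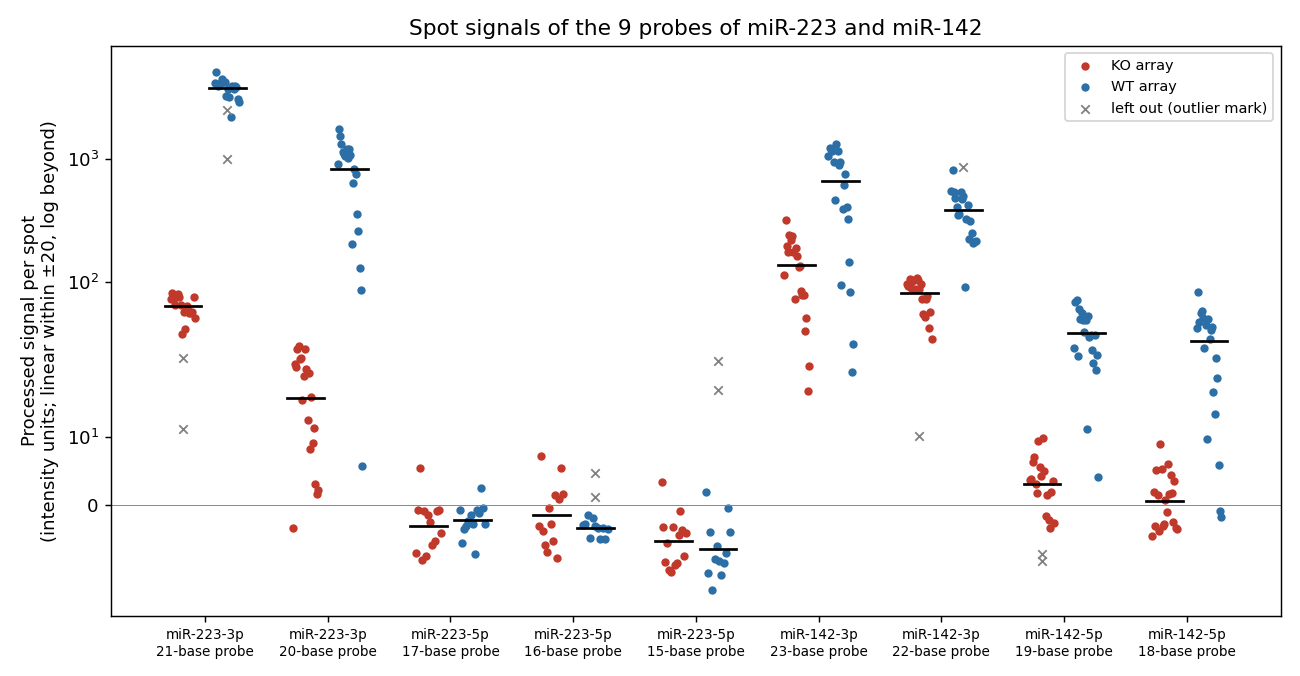
Processed signal of every spot (vertical axis, intensity units, linear within ±20 and logarithmic beyond) for the 9 probes of the 4 arms on the KO array (red) and the WT array (blue), with black bars for the mean of the spots used and grey crosses for spots left out. The 21-base miR-223-3p probe shows no overlap between the arrays, and the 20-base one overlaps through 1 dim WT spot. The miR-142-3p probes overlap, and the miR-223-5p spots lie around and below 0 on both arrays.

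miR-223-3p is the arm known to act in myeloid cells. The 21-base probe of mmu-miR-223-3p, shown above, averaged 63.6 ± 12.8 on the KO array and 3726 ± 653 on the WT array (SD, 18 spots each). The lowest, median and highest spots were 37.6, 64.1 and 81.4 on the KO array and 2159, 3857 and 5043 on the WT array. Every KO spot was therefore far below every WT spot, also after scaling, where the highest KO spot was 0.382 of the KO percentile and the lowest WT spot 4.44 of the WT percentile. A complete separation of scaled spots with the KO array lower occurred for 3.54% of the 113 measured probes, and with the KO array higher for 19.5%.

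By its 21-base probe, the only one measured on both arrays, the scaled difference of miR-223-3p was -4.68 (spot SD 0.26 over 17 positions), or 25.6-fold lower on the KO array. Relative to the median miRNA, which stood at 0.30, it was 31.6-fold lower, and without scaling 58.6-fold lower. It was the lowest of the 72 measured miRNAs, and the next, miR-27a-3p at -1.93 (spot SD 1.58), stood 2.75 above it. The miRNAs nearest to it after that were miR-19a-3p, at -1.5, and miR-29b-3p, at -1.48. No measured miRNA therefore had a difference near that of miR-223-3p.

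The 20-base probe of miR-223-3p lacks the last base of the longer one. It averaged 15.6 ± 9.77 on the KO array (20 spots) and 823 ± 505 on the WT array (20 spots). Its arrays overlapped through 1 of 20 WT spots, at 5.68, which lay under the highest KO spot, at 30.4. On the KO array 6 of its 20 spots were well above background, against 19 of 20 on the WT array, so only a bound can be given. Set against the lowest measured KO probe (21.1), it was at least 17.1-fold lower on the KO array after scaling. The longer probe was at least 3.02 times as bright as the shorter one on the KO array and 4.53 times on the WT array. Both probes were thus lower on the KO array, but the bounds do not show whether they were lower by the same factor.

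**Figure D2:**
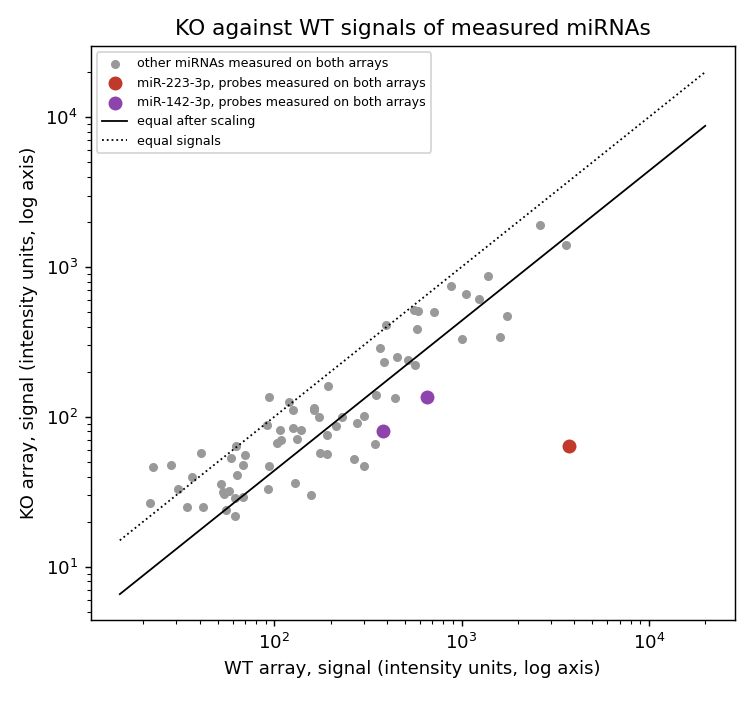
Signals on the KO array (vertical axis) against the WT array (horizontal axis), both in intensity units on log axes, for the miRNAs measured on both arrays. Grey points are other miRNAs (median over the probes measured on that array), and coloured points are single probes of miR-223-3p and miR-142-3p. The solid line marks equal levels after scaling and the dotted line equal signals: miR-223-3p lies alone far under the solid line, and the miR-142-3p points lie a short way under it.

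In order of brightness, miR-223-3p was 44th of 78 measured miRNAs on the KO array and 3rd of 100 on the WT array. With the brightest probe of each miRNA it was 47th and 2nd, and by the software's total gene signal, which sums detected probes, 47th of 99 detected miRNAs and 3rd of 120. Its neighbours in rank were miR-3096b-5p and miR-23b-3p on the KO array and miR-6366 and miR-20a-5p on the WT array. Of the summed total gene signal of all detected miRNAs, miR-223-3p held 0.286% on the KO array and 7.49% on the WT array. Brightness depends on how well a probe binds as well as on the amount of RNA, so these are ranks of signals and not of molecules. Over the 72 miRNAs measured on both arrays, with the same probes on each, miR-223-3p stood 44th on the KO array and 1st on the WT array, and these ranks are free of the scaling between arrays.

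**Figure D3:**
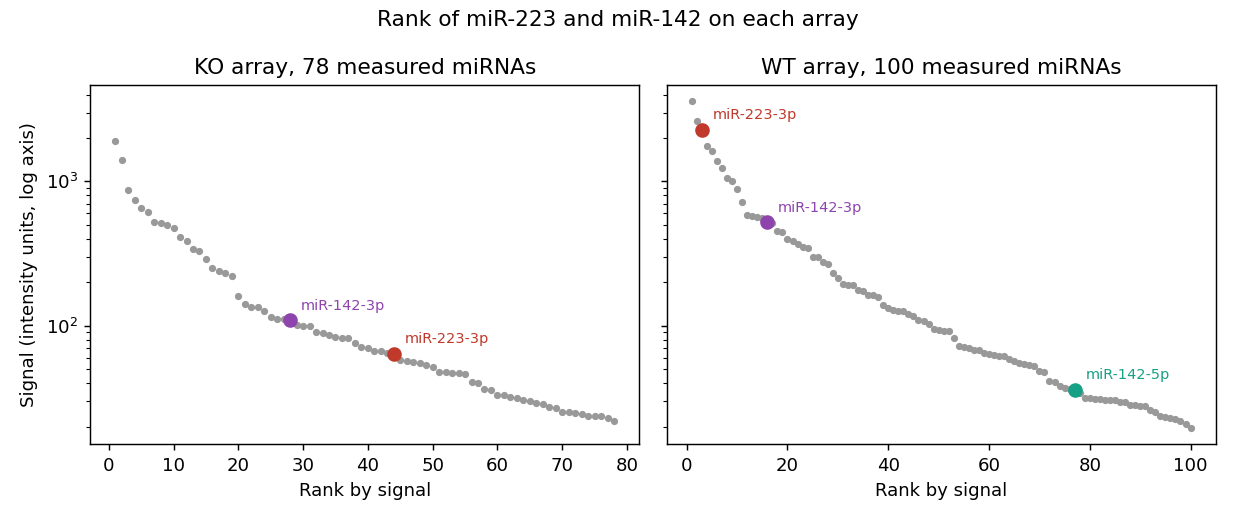
Signal of each measured miRNA (vertical axis, intensity units, log axis) by its rank on the KO array (left, 78 miRNAs) and the WT array (right, 100 miRNAs). miR-223-3p stands 44th on the KO array and 3rd on the WT array, miR-142-3p 28th and 16th, and miR-142-5p has a rank on the WT array only, at 77th.

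miR-223-5p is the opposite arm of the same hairpin, usually the less abundant one. The 3 probes of mmu-miR-223-5p averaged -2.98, -1.42 and -5.22 on the KO array and -2.20, -3.32 and -6.33 on the WT array, from the longest to the shortest. None of its spots was well above background on either array, and all 6 means lay below the mean of the negative controls. No fold is given for it. The 3p over 5p ratio of miR-223 was therefore at least 3.02 on the KO array and at least 128 on the WT array, set against each array's lowest measured probe (21.1 and 17.7). The 3p level was that of the 21-base probe alone on the KO array and the median of both probes on the WT array. Both ratios are lower bounds, so they do not show whether the ratio differed between genotypes.

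miR-142-3p is known to control cytoskeletal and signalling genes in blood cells. The 23-base probe of mmu-miR-142-3p averaged 137 ± 82.1 on the KO array and 658 ± 453 on the WT array (20 spots each), with lowest, median and highest spots of 16.6, 133 and 316 on the KO array and 19.4, 678 and 1316 on the WT array. Its 22-base probe averaged 81.0 ± 23.0 on the KO array and 381 ± 169 on the WT array (19 spots each), with 34.3, 88.1 and 108 on the KO array and 91.2, 356 and 806 on the WT array. The arrays overlapped for both probes. After scaling, 10 of 20 WT spots of the 23-base probe and 5 of 19 WT spots of the 22-base probe were no brighter than the highest KO spot.

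The scaled difference of miR-142-3p was -1.06 (spot SD 0.91 over 39 positions), or 2.08-fold lower on the KO array. Its 2 probes gave -1.08 and -1.04. Compared position by position, the scaled difference had a median of -0.93 for the 23-base probe and -0.99 for the 22-base probe. For the 23-base probe these position values ran from -2.43 to 1.98. The longer probe was 1.69 times as bright as the shorter one on the KO array and 1.73 times on the WT array. Relative to the median miRNA, miR-142-3p was 2.57-fold lower.

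Among the 72 measured miRNAs, miR-142-3p had the ninth lowest difference. The 3 nearest to it were miR-19b-3p (-1.05), miR-29a-3p (-1.07) and miR-18a-5p (-1.17), all closer to it than its own spot SD. It stood 28th of 78 measured miRNAs on the KO array and 16th of 100 on the WT array, and held 0.785% and 1.74% of the summed total gene signal on the KO and WT arrays. Its size depended on the processing. It was -2.25 without scaling and -2.15 with the percentile taken over all probes, and it was under 2-fold with quantile normalization (-0.89), background correction by normexp (-0.74), total gene signal or the value table of the series (-0.59 each), and spots paired by position (-0.96).

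**Figure D4:**
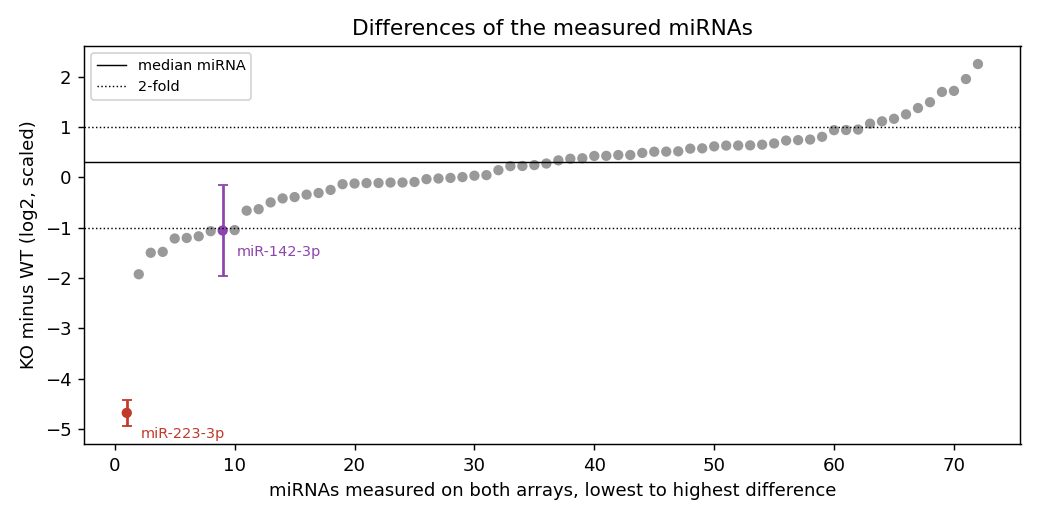
KO minus WT difference (vertical axis, log2, scaled) of the 72 miRNAs measured on both arrays, from the lowest to the highest (horizontal axis). Error bars on miR-223-3p and miR-142-3p are spot SDs, the solid line is the median miRNA and the dotted lines mark 2-fold. miR-223-3p at -4.68 stands apart from all others, while miR-142-3p at -1.06 has neighbours on both sides.

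The 2 loci were set against each other within each array, which removes the scaling. The 21-base probe of miR-223-3p was at 0.585 of the median of the miR-142-3p probes on the KO array and at 7.17 times it on the WT array. The KO minus WT difference of miR-223-3p minus that of miR-142-3p was -3.62 (log2, combined spot SD 0.95), which is 12.3-fold. Under the 17 other processing choices tried it lay between -4.08 and -3.16. Those choices that only change the scaling of an array could not move it. The 2 miRNAs were both lower on the KO array, with differences of very unequal size.

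miR-142-5p is a functional arm of the same hairpin. The 19-base probe of mmu-miR-142-5p averaged 3.18 ± 3.83 on the KO array (18 spots) and 38.6 ± 18.5 on the WT array (20 spots). Its 18-base probe averaged 0.685 ± 3.93 on the KO array and 33.3 ± 22.4 on the WT array (20 spots each). On the KO array no spot of either probe was well above background and both means were under that of the negative controls, against 18 of 20 and 13 of 20 spots well above background on the WT array.

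No fold can be given for miR-142-5p. The bound was 0.802 and 0.692 for its probes after scaling, under 1, and 1.83-fold and 1.58-fold without scaling. Scaled to the KO array, the WT means would be 16.9 and 14.6, which is under the lowest measured KO probe, so an unchanged level would not have counted as measured either. The highest KO spots of the probes were 9.76 and 8.95. miR-142-5p was among the 28 miRNAs measured on the WT array only. Its dim KO spots are therefore no separate support for a lower level. At such signals the share of background in a spot is not known.

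The 3p over 5p ratio of miR-142 was at least 5.16 on the KO array and 14.4 on the WT array. The KO bound uses the lowest measured KO probe in place of the 5p arm and lies under the WT value, so whether the balance of the arms differed between genotypes was not detectable. Arms are read by different probes (GC content of 31.6% to 33.3% for miR-142-5p and 34.8% to 36.4% for miR-142-3p), and the ratio is one of signals. On the WT array, miR-142-5p ranked 77th of 100 measured miRNAs.

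Part of the spread between spots went with their row on the array. On both arrays, spots in rows above 320 were dim: over all measured probes their median signal was 0.537 of their probe's median on the KO array and 0.446 on the WT array. The 20-base miR-223-3p probe had 5 spots there and the 23-base miR-142-3p probe 6, while the 21-base and 22-base probes had none among the spots used. In those rows the 23-base miR-142-3p probe averaged 47.5 on the KO array and 168 on the WT array, against 175 and 868 in the other rows. Its coefficient of variation over spots was 60.1% on the KO array and 68.8% on the WT array, against 37.7% and 41.7% without those rows. The 21-base miR-223-3p probe had 20.1% and 17.5%, where the median measured probe had 27.2% and 31.3%. With rows above 320 left out, a choice made after seeing the data, miR-223-3p was at -4.61 and miR-142-3p at -1.01.

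**Figure D5:**
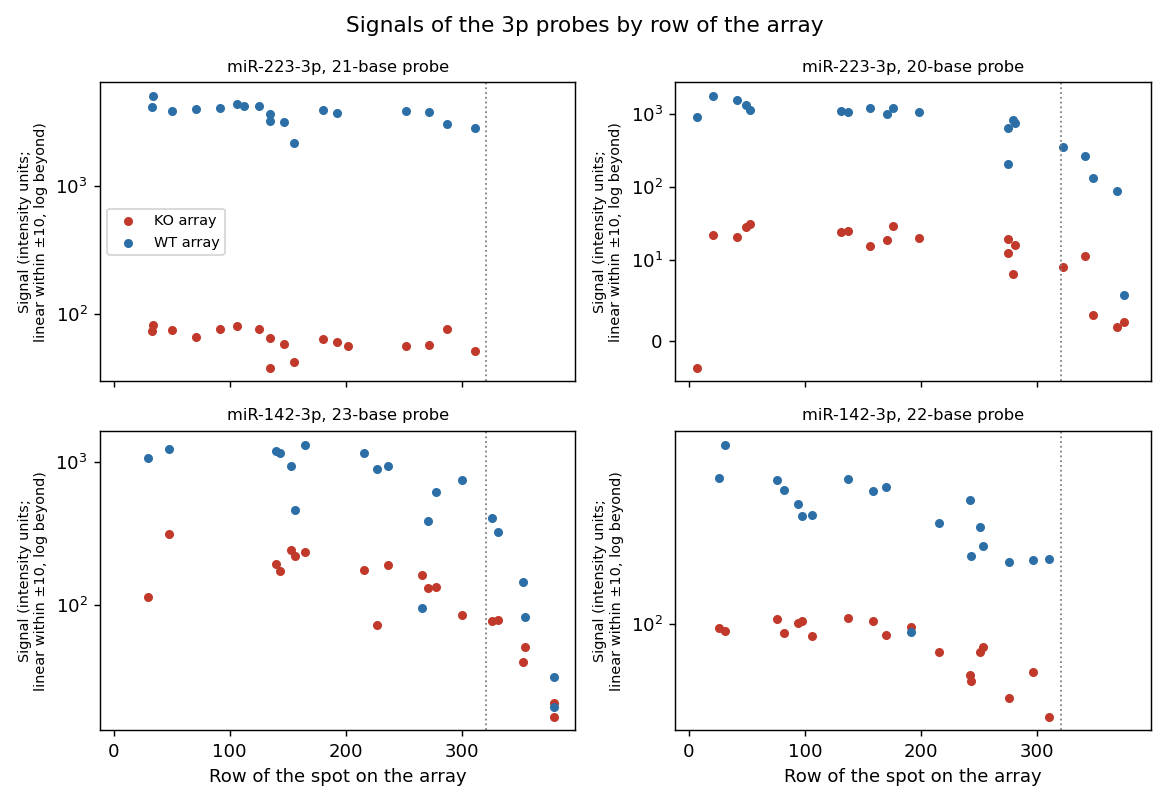
Signal of each spot used (vertical axis, intensity units, linear within ±10 and logarithmic beyond) by its row on the array (horizontal axis) for both probes of miR-223-3p and of miR-142-3p, KO array in red and WT array in blue. The dotted line marks row 320, beyond which the 20-base miR-223-3p and 23-base miR-142-3p spots become dim on both arrays. The 21-base miR-223-3p probe has no used spot beyond it.

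Control probes did not follow 1 factor between the arrays. Both miRNAs lay under all of them, but low ratios were common. Without scaling, 44.4% of the 72 measured miRNAs were at least 2-fold lower on the KO array. That is below every control except the bright corner probe. The share of measured miRNAs under all controls was not counted. The KO over WT ratio was 0.407 for the bright corner probe, 0.557 for the control mr_1 and 0.693 to 0.936 for the 4 hur controls. It was 0.0171 for the 21-base miR-223-3p probe and 0.208 and 0.213 for the miR-142-3p probes, and the 20-base miR-223-3p probe was at least 39.1-fold lower without scaling.

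Most other measured miRNAs known from myeloid cells lay below the median miRNA. Besides the 4 arms, the myeloid list had 13 miRNAs on the array, of which 8 were measured on both arrays, 2 on the WT array only and 3 on neither. Of the 8, 7 lay below the median miRNA, with a median of -0.37 against 0.30 for all measured miRNAs. At least 2-fold lower were 3 of the 8 and at least 2-fold higher 1, where each direction held 13.9% of all measured miRNAs. Furthest from the median miRNA were miR-27a-3p (-1.93), which targets the blood regulator Runx1, miR-29b-3p (-1.48), which targets DNA methyltransferases, and miR-155-5p (1.72), which drives myeloid expansion. The summed total gene signal of the 13 was 989 on the KO array and 2721 on the WT array, or 12.6% and 16.1% of that of all detected miRNAs, most of it from miR-21a-5p, at 796 and 2031.

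Of 5 miRNAs linked to PU.1, the factor that also drives miR-223, 2 were measured on both arrays. These were miR-155-5p (1.72) and miR-322-5p (0.44), with a median of 1.08 against 0.30 for all measured miRNAs. miR-338-3p was measured on the WT array only, and miR-146a-5p and miR-342-3p on neither. Their summed total gene signal was 99.3 on the KO array and 139 on the WT array, which as a share of all detected miRNAs was the other way round, 1.27% and 0.822%.

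Markers of red cells and of other tissues were not measured, while some lymphoid and megakaryocyte miRNAs were measured. None of 5 erythroid miRNAs on the array, miR-451a and miR-144-3p among them, was measured or detected on either array, and none of 16 miRNAs of muscle, liver, brain, epithelium and stroma was. Of 10 lymphoid miRNAs, both arrays measured miR-155-5p alone, 3 of the miR-181 family were measured on the WT array only, and miR-150-5p was measured on neither. Their summed total gene signal was 49.3 on the KO array and 63.6 on the WT array. As a share of all detected miRNAs it was higher on the KO array, 0.629% against 0.376%. miR-155-5p alone gave 43.0 on the KO array and 30.6 on the WT array, so the higher KO share rests on it. Of 15 miRNAs of stem cells, 7 were measured on both arrays. At least 2-fold higher were 3 and lower 1 of the 7, where each direction held 13.9% of all measured miRNAs. Their median was 0.95 against 0.30 for all measured miRNAs. The lists overlap and are not separate evidence. Among the 3 higher was miR-155-5p, also on the myeloid, PU.1 and lymphoid lists, and the 1 lower was miR-29a-3p, also on the myeloid list. The summed signals of the stem cell list were 261 on the KO array and 437 on the WT array, and its shares turned that direction round, 3.33% and 2.59%. Among 6 miRNAs linked to megakaryocytes, 4 were measured on both arrays, all within 2-fold, with a median of 0.30. They held 1.54% of the summed signal on the KO array and 1.14% on the WT array. Of the 4 measured, miR-10a-5p, miR-126-3p and miR-130a-3p are also on the stem cell list, so they do not single out megakaryocytes. In a pool of sorted cells, fewer cells that carry miR-223 and less miR-223 per cell cannot be told apart, and the part of cell composition in these differences was not tested.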

How the data were processed

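Total RNA of each sample was hybridised to a 1-colour (Cy3) Agilent mouse miRNA array. The submitters' processing notes name Agilent Feature Extraction 10.7.3 as the source of the deposited intensity values per spot. Per the file headers, a fitted additive spatial trend was subtracted, and the separate background correction was off. The software's flags (well above background, outlier) are as deposited. The deposited value table of the series held the software's total gene signal, an unlogged intensity: in both columns 1268 of 1269 rows named a feature on the array and matched within 0.1%.

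Probe means, scaling to the 75th percentile and differences were computed as described above; where both arrays measured several probes of a miRNA, the median of their differences was used, and the spot SD is that of log2 KO over WT ratios at shared positions, pooled over probes. The members, the lists, the naming rule and 13 alternatives were chosen with earlier results of these data known; 4 alternatives were added later. Named are all members, for each measured one the 3 miRNAs nearest in difference, up to 3 miRNAs per list furthest from the median miRNA, and neighbours in rank; other list members were named after their values were seen. The procedure was tested on simulated arrays with known changes. These gave every probe the same relative noise and no dimming by row, so they do not cover the row effect described above. Python 3.11.15, numpy 2.4.6, pandas 2.3.3, matplotlib 3.10.9, R 4.3.3 and limma 3.58.1 (normexp, offset 50) were used.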

Additional observations from a re-analysis of the deposited data

How the results depend on the processing

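miR-223-3p was lower on the KO array under all 17 alternatives, 4 of them chosen after seeing the data. It had the lowest difference in 16. With no filter on dim probes miR-324-3p, with a signal near 0 on both arrays, lay lower. Alternatives that only change the scaling, or subtract the median miRNA, shift all miRNAs alike and could not change the rank of miR-223-3p. Total gene signal and the value table hold the same values and are not separate checks. The value of miR-223-3p moved beyond its spot SD in 7: -5.87 without scaling, -5.77 with the 75th percentile over all probes, -4.97 with quantile normalization, -4.98 relative to the median miRNA, -3.90 with normexp, and -4.15 by total gene signal and by the value table. miR-142-3p was lower under all 17 and at least 2-fold lower under 12; it moved beyond its spot SD without scaling (-2.25) and with the percentile over all probes (-2.15). The gap between them moved beyond its spot SD under none, but alternatives that only change the scaling could not move it. Leaving the probes of miR-223 and miR-142 out of the scaling gave -4.93 and -1.31, and subtracting the negative control mean -4.82 and -1.11.

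The background counts (10 lower and 10 higher of 72) moved more, in part because some alternatives count other numbers of miRNAs: 45 with all spots well above background, 86 by total gene signal and by the value table, and 477 with no filter. At least 2-fold lower were 32 miRNAs without scaling, 31 with the percentile over all probes, 1 with normexp, 5 by total gene signal, by the value table and with all spots well above background, and 53 with no filter. At least 2-fold higher were 1 without scaling and with the percentile over all probes, 6 relative to the median miRNA and without the member probes, 29 by total gene signal and by the value table, 3 with all spots well above background and 227 with no filter. For the other settings the cause was not tested. miR-142-5p and the 3p over 5p ratio of miR-142 have a difference only with no filter on dim probes, -3.41 and 2.35 (log2). Both values rest on KO signals of miR-142-5p at background. miR-223-5p has no difference because its signals were at background on both arrays. No paired analysis was possible because the KO and the WT group hold 1 array each. Signal over background limits both 5p arms.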

Other observations

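Among the 72 miRNAs measured on both arrays, ranked over the same probes, the largest gaps in rank after that of miR-223-3p were those of miR-27a-3p (65th on the KO array and 32nd on the WT array), miR-19a-3p (53rd and 29th) and miR-29b-3p (47th and 24th). Besides the 21-base miR-223-3p probe, 3 of the 113 measured probes had all scaled KO spots below all scaled WT spots. These were probes of miR-29b-3p (-1.48), miR-106b-5p (-1.17) and miR-15a-5p (-0.71), all smaller differences than that of miR-223-3p. In the other direction, 22 probes had all scaled KO spots above all scaled WT spots, up to 2.25 for a probe of miR-193b-3p. The miRNAs of this paragraph were named after their values were seen.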
